A study of Mus musculus with 12 samples.

Results

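Adhesion G protein-coupled receptors (adhesion GPCRs) are cell surface proteins with a long extracellular part that binds matrix or neighboring cells, followed by the transmembrane bundle of a G protein-coupled receptor. The 10 genes described here, Adgra1, Adgra3, Adgrl1, Adgrl2, Adgrl3, Adgrl4, Adgrf5, Adgre5, Adgrg1 and Adgrg6, were taken by gene symbol from the 49315 genes of the files, and another 19 genes of the family were read beside them. The gene disrupted in the study, Adgra2 (Gpr124), is itself an adhesion GPCR and is left out of the 10. The comparisons ask which of its relatives are transcribed in brain endothelium, and whether any of them changes when Adgra2 is lost or cut short.

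RNA was sequenced from endothelial cells of E15.5 mouse forebrains, sorted as CD31+/CD140b-/CD45-/7AAD-, in 12 libraries of 1 embryo each. There were 4 wild-type embryos (JE1, JE6, KE8 and LE6), 4 Gpr124ΔC/ΔC embryos (JE3, JE4, LE2 and LE5) and 4 Gpr124-/- embryos (KE4, ME1, ME4 and ME5), where the codes are those of the sample labels. Both mutants are germline and are therefore present in all cells of the embryo. The ΔC allele carries a V5 tag and a stop codon after the last transmembrane segment, placed by CRISPR/Cas9 in C57Bl/6 zygotes and bred through B6DF1 mice, so that the protein lacks its intracellular domain. The - allele is a lacZ allele of Gpr124. Homozygotes of each kind came from separate intercrosses of heterozygotes, and the labels do not say from which cross each wild-type embryo came. The meaning of the first letter of the embryo code (J, K, L or M) is not given. Letters J and L hold wild-type and Gpr124ΔC/ΔC embryos, letter K pairs wild-type KE8 with Gpr124-/- KE4, and M is found on the remaining 3 Gpr124-/- embryos alone, so that letter and genotype cannot be told apart for those 3.

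Libraries held from 13877572 to 22551163 reads assigned to genes. Adgra2 itself was at 28.3 to 51.1 TPM (a per-length share of the reads, brought to 1 common total for all libraries) in wild type, 34.1 to 63.4 TPM in Gpr124ΔC/ΔC and 4.03 to 6.29 TPM in Gpr124-/-. Its level is thus low in the libraries labelled Gpr124-/-, while Gpr124ΔC/ΔC overlapped wild type, and a level over the whole gene does not check that label. The 10 endothelial markers, such as Pecam1, Cdh5 and Kdr, were each at 1 TPM or more in all 12 libraries, with a summed level of 5023 to 6100 TPM in wild type, 4332 to 6580 TPM in Gpr124ΔC/ΔC and 5258 to 6417 TPM in Gpr124-/-. Erythroid and platelet RNA stood out in Gpr124-/-. The 6 erythroid markers summed to 9836 to 30202 TPM there, against 4858 to 6698 TPM in wild type and 3245 to 6128 TPM in Gpr124ΔC/ΔC. The 5 platelet markers summed to 497 to 1435 TPM in Gpr124-/-, against 231 to 455 TPM in wild type and 315 to 438 TPM in Gpr124ΔC/ΔC. Wild-type KE8 stood apart in the 5 fibroblast markers, with a sum of 57.4 TPM (Dcn at 37.9 and Lum at 11.5 TPM) against 5.5 to 12.5 TPM in the other 11 libraries.

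As background, most adhesion GPCRs cut themselves at a site next to the membrane, and the short stalk that is left behind can act as a tethered agonist for G proteins once the outer fragment is pulled away. Adgra1 and Adgra3 are the nearest relatives of Adgra2, which works with Reck as a co-receptor for WNT7 in brain endothelium. Adgrl1, Adgrl2 and Adgrl3 are latrophilins, which bind teneurins and FLRT proteins and are best known from synapses. Adgrl4 (Eltd1) and Adgrf5 (Gpr116) are endothelial members of the family, Adgre5 (Cd97) is known from leukocytes and binds Cd55, Adgrg1 (Gpr56) from neural progenitors and platelets, and Adgrg6 (Gpr126) from Schwann cells.

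Wild-type forebrain endothelium contained 3 of the 10 genes at a high level, 5 at a middle or low level, and 2 below 1 TPM on average. On the TPM scale, which is per gene length and so allows genes to be compared, Adgrl4 stood highest with 544 ± 99.4 TPM (SD, n = 4 here and below). Adgre5 followed with 346 ± 35.5 TPM and Adgrf5 with 269 ± 54.3 TPM. These 3 levels lay at the 98.6, 97.4 and 96.4 percentiles of the protein-coding genes detected in wild type, and the lowest Adgrl4 library, at 409 TPM, was above the highest Adgre5 library, at 390 TPM. The ranges of Adgre5 and Adgrf5 overlapped, although Adgre5 was the higher of the pair in 4 of 4 wild-type libraries. Part of the Adgre5 exons overlaps another gene, as given below, so its place in this order is uncertain.

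Adgrl2 was the most abundant latrophilin with 47.8 ± 6.06 TPM, a level whose range overlapped that of Adgra2 at 38.6 ± 10.4 TPM. Adgrg1 had 23.9 ± 4 TPM, Adgrl1 16.3 ± 2.97 TPM and Adgra3 10.6 ± 3.03 TPM, and the ranges of Adgrl1 and Adgra3 overlapped. Adgrl3 was the lowest of the 8 genes that reached 1 TPM in all wild-type libraries, with 3.59 ± 0.425 TPM. Adgrg6 averaged 0.73 ± 0.558 TPM over libraries from 0.078 to 1.27 TPM, and Adgra1 0.177 ± 0.0944 TPM. Adgrg6 was the higher of these in 4 of 4 wild-type libraries, on 6 to 116 reads against 2 to 12, although their ranges in TPM overlapped. The sum over the 10 genes was 1262 ± 175 TPM in wild type, 1221 ± 300 TPM in Gpr124ΔC/ΔC and 1095 ± 95.2 TPM in Gpr124-/-, and Adgrl4 alone gave 42.9%, 39% and 33.7% of it.

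**Figure D1:**
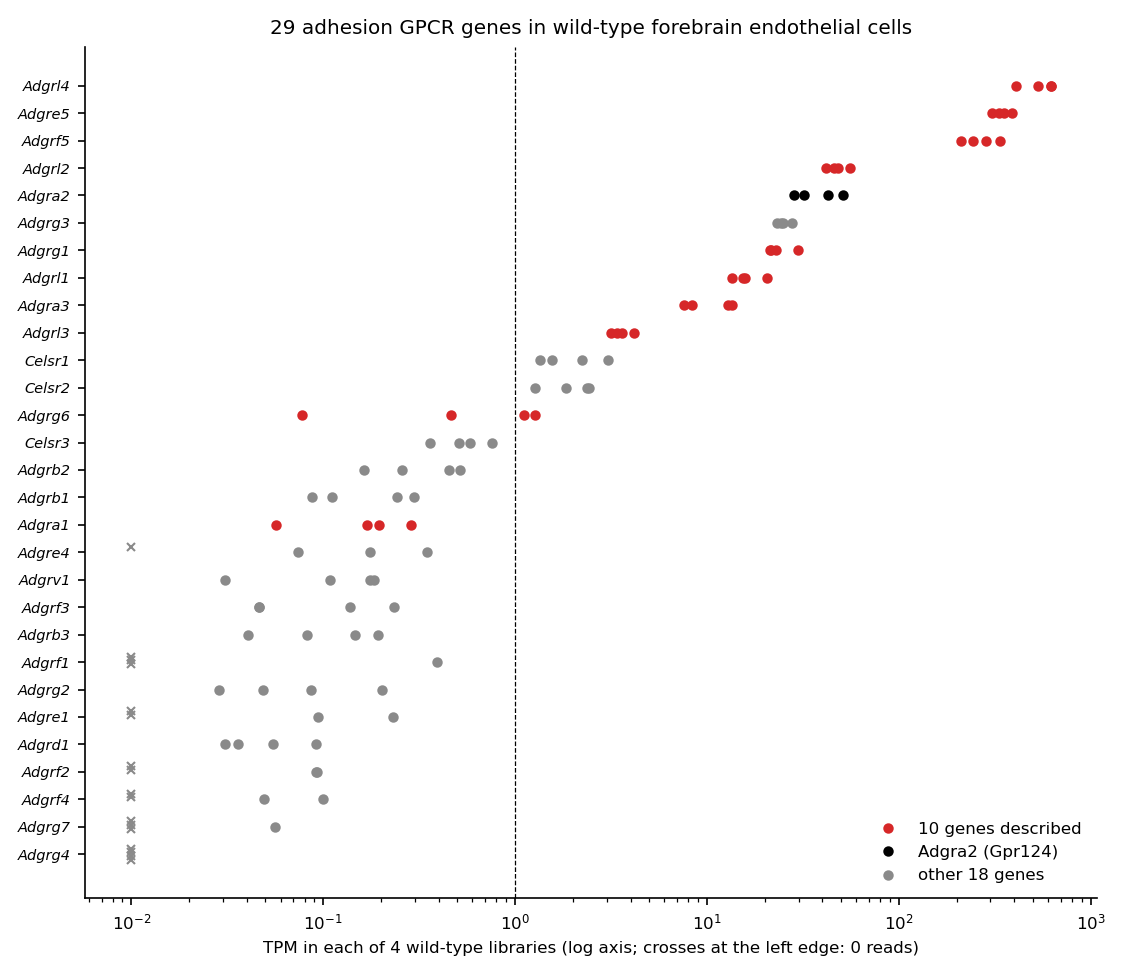
TPM on a log axis of 29 adhesion GPCR genes in each of the 4 wild-type libraries, 1 point per library, ordered by mean, with the 10 genes described in red, Adgra2 in black, another 18 in gray and libraries with 0 reads as crosses at the left edge. Adgrl4, Adgre5 and Adgrf5 lie between 212 and 621 TPM, above the other 26 genes, and Adgrg6 and Adgra1 are the only red genes with points left of the dashed line at 1 TPM.

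Of the other 19 family members, 4 reached 1 TPM in all wild-type libraries. The count was 8 of the 10, but those were chosen with earlier results of these data known, so the difference is not a result. The highest was Adgrg3 (Gpr97), a receptor known from granulocytes, with 25.1 ± 1.94 TPM, next to Adgrg1 in level and overlapping it. Celsr1, a planar polarity cadherin of the family, had 2.05 ± 0.766 TPM. Adgre1, which encodes the macrophage antigen F4/80, averaged 0.0814 TPM, and the pan-leukocyte gene Ptprc (CD45), against which the cells were sorted, averaged 0.0226 TPM. Of the 8 macrophage and leukocyte markers, Fcer1g averaged 12.6 TPM and Tyrobp 1.19 TPM in wild type, and the other 6 were below 1 TPM. The part of such cells in the level of Adgre5, a receptor known from leukocytes, was not tested.

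The annotated starts of these genes differed in their number of CG dinucleotides. RefSeq promoter windows (GRCm38.p6, 250 bases before to 50 after a start) were found for 9 of the 10 genes, 13 windows in all, with none for Adgre5. The genes at 23.9 TPM or more in wild type had few CG dinucleotides at their starts, 8 for Adgrl4, 8 in each of the windows of Adgrf5, 4 for Adgrl2, and 7 and 6 for Adgrg1. The genes at lower levels had more, 28 for Adgrl1, 34 for Adgra3, 20 to 40 for the 3 windows of Adgrl3, 38 for Adgrg6 and 17 for Adgra1. The division at 23.9 TPM, the mean of Adgrg1, was made with the levels known. The Adgrl2 window (chr3:148954586-148954885) lies inside the gene (minus strand, 148815583 to 148990555), away from its outer start. The first Adgrf5 window (chr17:43360181-43360480) lies before the gene start of 43389466 used for the counts. The median over all 32851 windows of the table was 7, and 26.5% of them held 20 or more. The windows of the 3 genes that passed an adjusted p of 0.05 in a comparison of genotypes are printed from the plus strand, with each CG in capitals. Adgrl4 lies at chr3:151437632-151437931, Adgrg1 at chr8:94976859-94977158 (the first of its windows) and Adgrl3 at chr5:81020321-81020620 (the first of its windows).
Adgrl4: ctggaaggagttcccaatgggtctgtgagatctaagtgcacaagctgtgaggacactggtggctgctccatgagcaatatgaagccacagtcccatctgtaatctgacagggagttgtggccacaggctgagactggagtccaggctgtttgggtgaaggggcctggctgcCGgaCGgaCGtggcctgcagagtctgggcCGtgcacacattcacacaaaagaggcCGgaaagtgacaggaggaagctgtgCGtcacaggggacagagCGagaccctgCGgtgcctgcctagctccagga
Adgrg1: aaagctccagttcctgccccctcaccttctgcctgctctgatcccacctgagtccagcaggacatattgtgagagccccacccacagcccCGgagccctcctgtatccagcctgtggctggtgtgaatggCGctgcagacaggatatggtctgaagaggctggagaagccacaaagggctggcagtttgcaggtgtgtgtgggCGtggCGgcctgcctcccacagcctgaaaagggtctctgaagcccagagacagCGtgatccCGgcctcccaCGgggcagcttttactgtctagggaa
Adgrl3: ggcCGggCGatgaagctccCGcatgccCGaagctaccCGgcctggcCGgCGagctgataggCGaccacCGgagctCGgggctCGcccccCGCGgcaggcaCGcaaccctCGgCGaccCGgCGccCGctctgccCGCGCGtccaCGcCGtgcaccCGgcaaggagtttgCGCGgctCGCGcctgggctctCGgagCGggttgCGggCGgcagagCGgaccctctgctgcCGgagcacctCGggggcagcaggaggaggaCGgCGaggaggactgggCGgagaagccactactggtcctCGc
The 7-letter TCF/LEF core, searched on both strands as CTTTG followed by 2 bases that are each A or T, was found in 1 of the 13 windows, that of the inner Adgrl2 start, and in 16.9% of all windows. Its absence from the other windows says only that these letters are not in those 300 bases.

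In Gpr124-/- endothelium, Adgrl3 was 7.51-fold lower than in wild type, Adgrl4 1.51-fold lower and Adgrg1 1.68-fold higher. The latter pair passed the adjusted p but not the fold threshold. In a fit with a term for the letter of the embryo code neither passed the adjusted p, with a log2 fold change of -0.70 in place of -0.59 for Adgrl4 and of 0.28 in place of 0.75 for Adgrg1. A gene was called changed at an adjusted p under 0.05 and a log2 fold change beyond 1 in either direction, in a fit over all 16637 genes with enough reads. Of the 9 genes tested, 0 were called higher and 1 (Adgrl3) was called lower, beside 5.67% of all tested genes called higher and 4.21% lower. Without the fold threshold, 1 of 9 was higher and 2 were lower, against 10.5% and 9.32% of all genes. The CPM (reads scaled to the normalized library size, with no length term) of the 4 mutant and 4 wild-type libraries did not overlap for 3 of the 9, Adgrl3, Adgrl4 and Adgre5, against 22.9% of all genes. At an unadjusted p under 0.05 there were 4 of 9, against 30.6% of all genes. The median log2 fold change was -0.11 over the 9 genes and -0.01 over all tested genes. In bulk RNA, fewer cells of a kind and less RNA per cell cannot be told apart.

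In Gpr124ΔC/ΔC endothelium, Adgrl3 was the 1 gene of the 9 tested that passed against wild type. It was called lower, and 0 of 9 were called higher, beside 1.03% and 0.89% of all genes, and without the fold threshold the counts were the same, against 2.24% and 1.85%. CPM did not overlap for 1 of 9, against 11.3% of all genes, and the median log2 fold change was -0.02 over the 9 genes and 0.01 over all tested genes. Between the 2 mutants, 1 of 9 was called lower in Gpr124-/- (Adgrl3) and 0 higher, beside 1.94% and 2.67% of all genes. Without the fold threshold 1 was lower and 1 (Adgrg1) higher, against 3.89% and 4.93%. CPM did not overlap for 1 of 9, against 13.9%, and the median log2 fold change was -0.19 over the 9 genes and -0.02 over all tested genes. Each mutant was compared with the same 4 wild-type libraries.

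**Figure D2:**
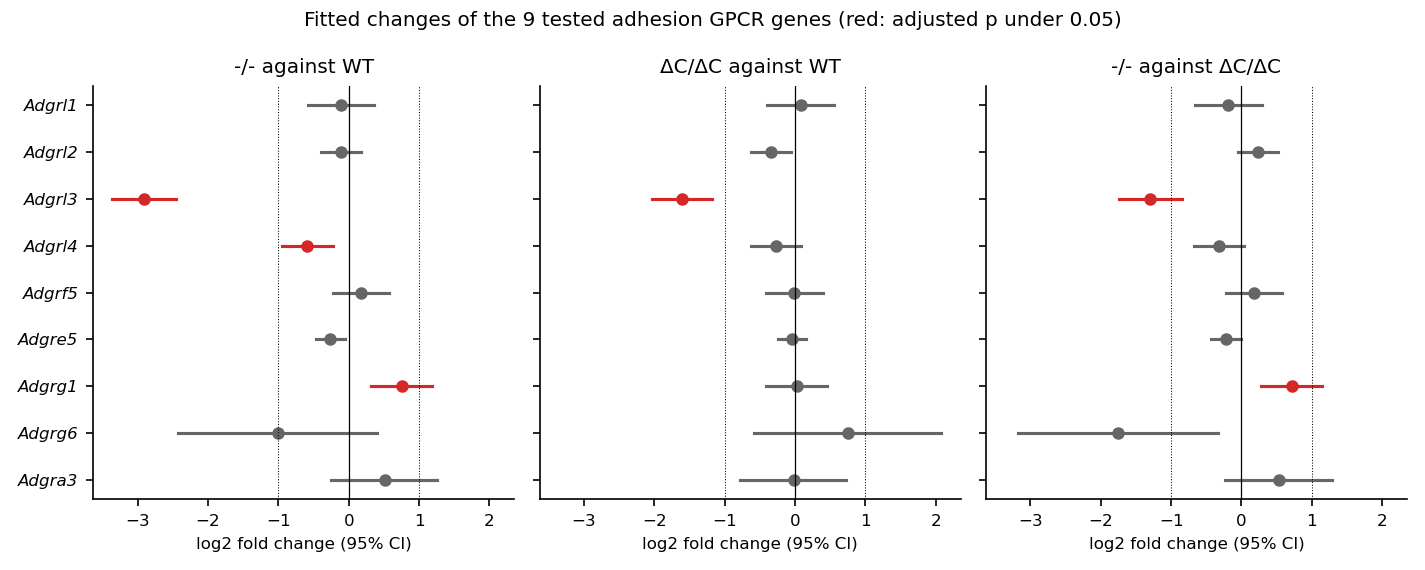
Fitted log2 fold changes (points) with 95% confidence intervals (lines) of the 9 tested genes in the 3 comparisons, with dotted lines at a change of 1 in either direction and red for an adjusted p under 0.05. Adgrl3 lies left of the dotted line in all 3 panels, at -2.91, -1.61 and -1.30, and Adgrg1 lies right of 0 in red in the panels with Gpr124-/-, at 0.75 and 0.72.

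Among the latrophilins, Adgrl3 (ENSMUSG00000037605, chr5:81020138-81825133, plus strand, GRCm38) carried the largest change of the 9 genes in each mutant against wild type. It was at 3.61, 3.18, 3.41 and 4.17 TPM in wild type (JE1, JE6, KE8 and LE6). Gpr124ΔC/ΔC libraries JE3, JE4, LE2 and LE5 had 1.11, 0.913, 1.33 and 1.61 TPM, and Gpr124-/- libraries KE4, ME1, ME4 and ME5 had 0.672, 0.528, 0.405 and 0.369 TPM. The 3 genotypes did not overlap, with wild type highest, Gpr124ΔC/ΔC between and Gpr124-/- lowest in every library. Its exons share 1582 bases (8.9%) with Gm16054 on the opposite strand, which had 0 to 14 reads. The levels stood on 369 to 499 reads in wild type, 76 to 150 in Gpr124ΔC/ΔC and 40 to 69 in Gpr124-/-.

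The log2 fold change of Adgrl3 was -2.91 in Gpr124-/- against wild type (SE 0.21, 95% interval -3.36 to -2.45, adjusted p 1.26e-06), which is 7.51-fold lower. In Gpr124ΔC/ΔC it was -1.61 (SE 0.20, interval -2.04 to -1.18, adjusted p 0.000476), or 3.05-fold lower. The 2 mutants also differed from each other, by -1.30 (SE 0.21, interval -1.74 to -0.85, adjusted p 0.00222). For comparison, Adgra2 RNA changed by -3.05 in Gpr124-/- and 0.11 in Gpr124ΔC/ΔC on the same log2 scale, with an interval of -0.49 to 0.71 for the latter. The RNA level does not give the amount of receptor. The paper reports that the GPR124ΔC protein was much reduced in brain endothelial cells, at the surface and in total, while its RNA was similar to wild type. The fall of Adgrl3 in each mutant against wild type kept its call when the fit held a term for the letter and in the other alternatives tried.

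Within letters, on the scale of mean TPM, the log2 ratio of Adgrl3 was -1.75 in letter J and -1.50 in letter L for Gpr124ΔC/ΔC over wild type, and -2.34 in letter K for 1 Gpr124-/- embryo over 1 wild-type embryo. When the letter was a term of the fit, the difference between the mutants was -0.68 with an adjusted p of 0.687, and with limma on log2(TPM + 1) it was -0.58, no longer past the fold threshold. Its adjusted p was not under 0.05 in 3 of 23 alternatives, the letter term among them. Letter K rests on wild-type KE8, the library with the high fibroblast sum, and without KE8 Adgrl3 kept its call in each mutant. The summed endothelial markers of the 3 genotypes overlapped, as given above, but some single markers did not. Of the 10 markers 3 were higher and 2 lower at an adjusted p under 0.05 in Gpr124-/- against wild type, and 1 (Emcn) was called. In the order opposite to that of Adgrl3, Cdh5 was at 282 to 346 TPM in wild type, 368 to 444 TPM in Gpr124ΔC/ΔC and 492 to 555 TPM in Gpr124-/-, and Emcn at 158 to 212, 242 to 324 and 403 to 462 TPM. Pecam1 means rose in the same order (491, 579 and 731 TPM), and the means of Flt1 and Eng were highest in Gpr124-/-. Esam means fell in the order of Adgrl3, at 1560, 1373 and 1300 TPM in wild type, Gpr124ΔC/ΔC and Gpr124-/-. Tek (616, 666 and 384 TPM), Erg (56.2, 57.1 and 43.2 TPM), Kdr and Tie1 had their lowest means in Gpr124-/-. Of the markers of other cells, Rgs5 and Pdgfra had means in the same order as Adgrl3. The pericyte marker Rgs5 averaged 17.4, 9.22 and 6.56 TPM and the fibroblast marker Pdgfra 0.697, 0.287 and 0.12 TPM in wild type, Gpr124ΔC/ΔC and Gpr124-/-, and both were called lower in Gpr124-/-, while the pericyte marker Abcc9 was called higher (1.79, 1.77 and 11.6 TPM). The 6 pericyte markers summed to 19.5 to 40.7 TPM in wild type, 10.4 to 22.5 TPM in Gpr124ΔC/ΔC and 26.7 to 34.8 TPM in Gpr124-/-. The part of these cells in the Adgrl3 result was not tested. The genes whose log2 CPM followed that of Adgrl3 most closely over the 12 libraries were Ppard, a nuclear receptor (r = 0.989), and Car2, a carbonic anhydrase (r = 0.986). The 12 points fall by genotype, and 133 genes had an r of 0.95 or more, so that such a likeness is shared by many genes. Car2 averaged 461, 152 and 55.2 TPM in wild type, Gpr124ΔC/ΔC and Gpr124-/-, and Ppard 17.1, 7.23 and 3.95 TPM.

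The other latrophilins did not pass the test in any of the 3 comparisons. Adgrl2 (ENSMUSG00000028184, chr3:148815583-148990555, minus strand) was at 55.9, 48.2, 45.7 and 41.5 TPM in wild type, 38.8, 44.3, 39.1 and 37.3 TPM in Gpr124ΔC/ΔC and 41.1, 40.4, 52.5 and 49.5 TPM in Gpr124-/-. The 3 ranges overlapped. Its change on the log2 scale was -0.11 in Gpr124-/- (interval -0.39 to 0.18, adjusted p 0.644) and -0.34 in Gpr124ΔC/ΔC (interval -0.62 to -0.06, adjusted p 0.215). Adgrl1 (ENSMUSG00000013033, chr8:83900105-83941954, plus strand), on the chromosome of Adgra2 and 56.8 Mb from it, ranged over 13.5 to 20.5 TPM in wild type, 13.9 to 23.9 TPM in Gpr124ΔC/ΔC and 14.7 to 16.6 TPM in Gpr124-/-. Its changes were -0.11 (interval -0.58 to 0.36) and 0.08 (interval -0.40 to 0.55) with adjusted p of 0.785 and 0.957, and their sign turned when single libraries were left out, Gpr124ΔC/ΔC JE3 and wild-type KE8 for the latter and wild-type JE6 for the former.

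Adgrl4 (ENSMUSG00000039167, chr3:151437887-151545086, plus strand), the most abundant of the 10, was lower in Gpr124-/-. Wild-type libraries had 528, 409, 621 and 617 TPM. Gpr124ΔC/ΔC libraries had 299, 452, 572 and 598 TPM, and Gpr124-/- libraries 395, 376, 437 and 271 TPM. Wild type and Gpr124-/- overlapped in TPM through JE6 (409) and ME4 (437) but not in CPM, which was 729 to 976 against 445 to 670.

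On the log2 scale Adgrl4 differed by -0.59 in Gpr124-/- against wild type (SE 0.17, interval -0.95 to -0.23, adjusted p 0.0239), or 1.51-fold lower, and short of the fold threshold. In Gpr124ΔC/ΔC it was -0.27 (interval -0.63 to 0.09, adjusted p 0.548), and between the mutants -0.32 (interval -0.68 to 0.04, adjusted p 0.277), so that the mutants were not shown to differ. The difference in Gpr124-/- did not pass in all settings. The adjusted p was 0.0587 without wild-type KE8 (-0.53), 0.0621 without wild-type LE6 (-0.55), 0.0571 without Gpr124-/- ME5 (-0.47) and 0.164 in the fit with a letter term, where the change was -0.70. With limma on log2 TPM it was 0.128, 0.13 and 0.219 in the 3 settings tried, each with a change of -0.56. It missed the threshold in 7 of 23 alternatives. In letter K alone the log2 ratio of TPM was -0.65.

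Adgrf5 (ENSMUSG00000056492, chr17:43389466-43459557, plus strand), known from endothelium and from the lung, where it holds surfactant in check, did not pass the test in any comparison. It was at 243, 212, 338 and 283 TPM in wild type, 158, 254, 368 and 368 TPM in Gpr124ΔC/ΔC and 303, 270, 361 and 308 TPM in Gpr124-/-, and the genotypes overlapped. Fitted changes on the log2 scale were 0.17 in Gpr124-/- (interval -0.23 to 0.57, adjusted p 0.589) and -0.01 in Gpr124ΔC/ΔC (interval -0.41 to 0.39, adjusted p 0.997). The former turned to -0.20 in the fit with a letter term. In library JE3, the Gpr124ΔC/ΔC embryo with the lowest endothelial marker sum (4332 TPM), Adgrl4, Adgrf5 and Adgre5 were each at the lowest level of their genotype.

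Adgre5 (ENSMUSG00000002885, chr8:83723251-83741326, minus strand), 56.6 Mb from Adgra2 on the same chromosome, was at 333, 306, 355 and 390 TPM in wild type, 271, 339, 406 and 410 TPM in Gpr124ΔC/ΔC and 279, 270, 312 and 321 TPM in Gpr124-/-. Its CPM did not overlap between wild type (442 to 501) and Gpr124-/- (348 to 431), but its TPM did. The log2 fold change was -0.27 in Gpr124-/- (SE 0.10, interval -0.47 to -0.06) with an adjusted p of 0.0701, which did not pass, and -0.05 in Gpr124ΔC/ΔC (interval -0.25 to 0.16, adjusted p 0.935). In 3 of 23 alternatives the adjusted p in Gpr124-/- passed, at 0.0433 with library totals, 0.0429 with a mean count of at least 50 and 0.0249 without ME5. Adgre5 shares 895 exon bases, 23.8% of its exon length, with Ddx39 on the opposite strand, which itself had 2831 to 4759 reads. Whether the counting used strand is not stated, so it is not known how reads of the 2 genes were assigned there. How far this moves the Adgre5 level was not measured.

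**Figure D3:**
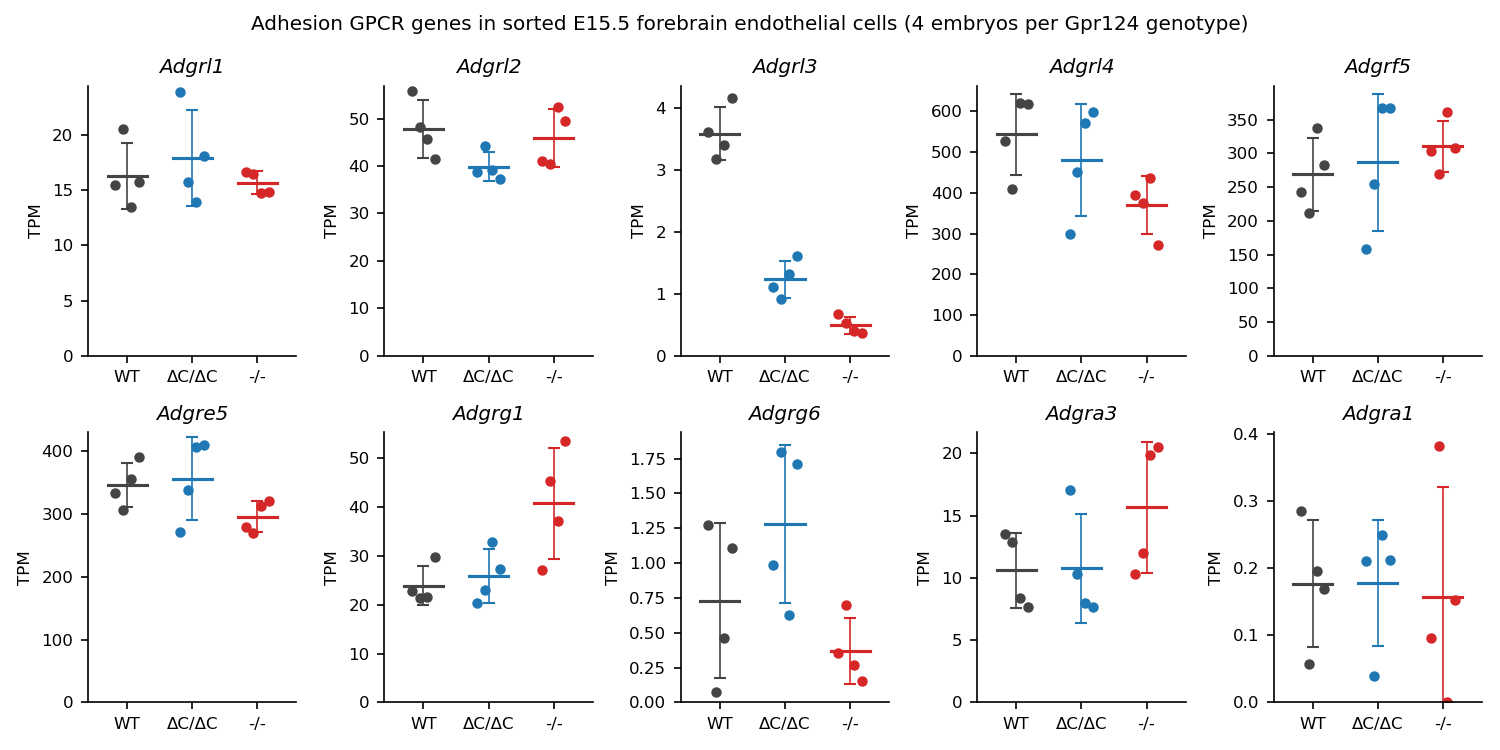
TPM (linear axes from 0) of each of the 10 genes in 12 libraries, 1 panel per gene, with points for embryos, horizontal lines for the mean of 4 and whiskers for the SD. The genotypes are apart only in the Adgrl3 panel, where the means are 3.59, 1.24 and 0.494 TPM, and the Gpr124-/- points of Adgrg1 spread from 27.1 to 53.6 TPM.

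Adgrg1 (ENSMUSG00000031785, chr8:94974751-95014217, plus strand), 67.9 Mb from Adgra2, was the 1 gene of the 9 tested that was higher at an adjusted p under 0.05 in Gpr124-/-, short of the fold threshold. Wild-type libraries had 22.9, 21.3, 21.5 and 29.8 TPM and Gpr124ΔC/ΔC libraries 20.3, 23.0, 32.9 and 27.3 TPM. Gpr124-/- libraries KE4, ME1, ME4 and ME5 had 27.1, 45.4, 37.1 and 53.6 TPM. The 3 embryos of letter M were above all 8 other libraries, while KE4 lay within the wild-type range. The log2 fold change was 0.75 in Gpr124-/- against wild type (SE 0.20, interval 0.31 to 1.18, adjusted p 0.0194), or 1.68-fold, and 0.72 against Gpr124ΔC/ΔC (interval 0.28 to 1.15, adjusted p 0.0439). In Gpr124ΔC/ΔC against wild type it was 0.03 (interval -0.41 to 0.46, adjusted p 0.987).

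The difference in Adgrg1 did not pass in all settings. In the fit with a letter term it was 0.28 with an adjusted p of 0.683, and within letter K the log2 ratio of TPM was 0.33. The adjusted p against wild type was 0.0618 without ME1, 0.0518 without ME5 and 0.0532 without wild-type JE1, and 0.00189 without KE4. With limma on log2(TPM + 1) and any TPM above 0 kept it was 0.0628, and it missed the threshold in 5 of 23 alternatives. Against Gpr124ΔC/ΔC the adjusted p was above 0.05 in 16 of 23 alternatives. The largest adjusted p among those that left out 1 library was 0.123, without ME1.

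Platelet RNA moved with Adgrg1 across the Gpr124-/- libraries. The 5 platelet markers summed to 497 TPM in KE4, 1026 in ME4, 1434 in ME1 and 1435 in ME5, and Adgrg1 was likewise lowest in KE4, next in ME4 and highest in ME1 and ME5. In the other 8 libraries the sum was 231 to 455 TPM. In Gpr124-/- against wild type 4 of the 5 markers, Pf4, Ppbp, Itga2b and Gp9, were called higher, beside 5.67% of all genes. The 8 macrophage and leukocyte markers summed to 39.7 to 68.9 TPM in Gpr124-/- against 11.4 to 18.3 TPM in wild type, of which Fcer1g, also found in platelets, gave 49.1 of the Gpr124-/- mean of 54.2 TPM, and Ptprc and Cx3cr1 averaged 0.0137 and 0.0841 TPM. C1qa and C1qb averaged 1.4 and 1.97 TPM there against 0.207 and 0.576 TPM in wild type, with KE4 at 5.16 and 6.84 TPM. The 8 neural progenitor markers, another site of Adgrg1 expression, summed to 33 to 43.9 TPM in Gpr124-/- and 25 to 40.6 TPM in wild type. The 6 erythroid markers summed to 13706 TPM in KE4, 9836 in ME4, 30202 in ME1 and 20026 in ME5, an order other than that of Adgrg1. The part of platelet and erythroid RNA in the Adgrg1 result was not tested.

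**Figure D4:**
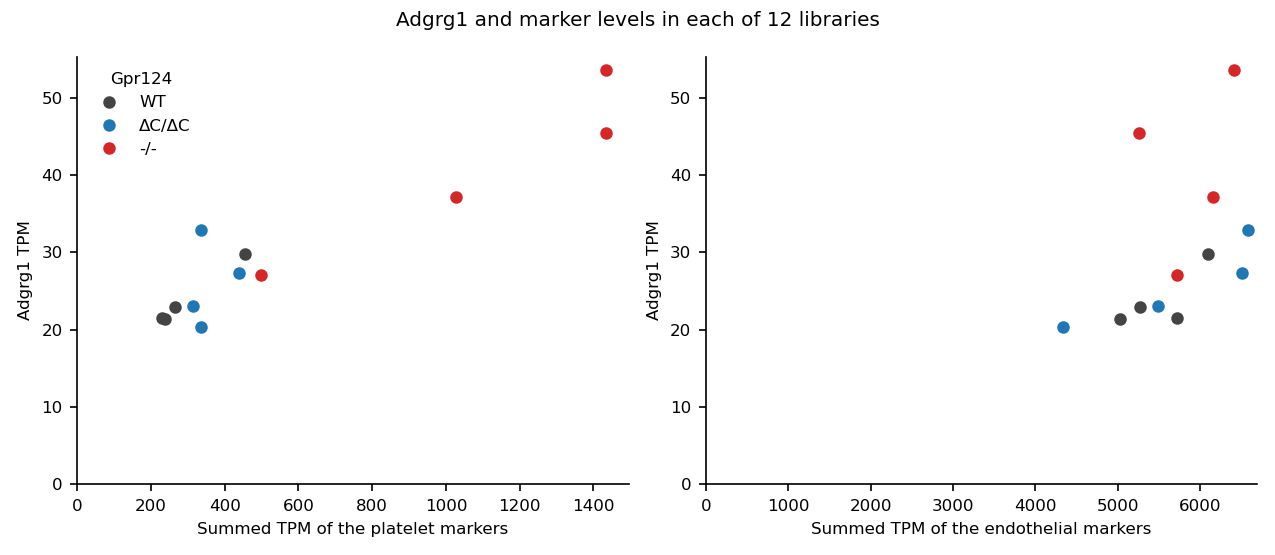
Adgrg1 TPM (vertical axes from 0) against the summed TPM of 5 platelet markers (left) and of 10 endothelial markers (right), 1 point per library, colored by genotype. The Gpr124-/- libraries with platelet sums of 1026 to 1435 TPM have Adgrg1 at 37.1 to 53.6 TPM, and the other 9 libraries lie at or below 497 and 32.9 TPM, while the endothelial sums of the genotypes overlap.

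Adgrg6 (ENSMUSG00000039116, chr10:14402583-14545179, minus strand) was low and uneven. It was at 1.27, 0.078, 0.462 and 1.11 TPM in wild type, 0.983, 1.80, 0.628 and 1.71 TPM in Gpr124ΔC/ΔC and 0.353, 0.702, 0.270 and 0.153 TPM in Gpr124-/-, from 6 to 116 reads per library. All 3 ranges overlapped. On the log2 scale Adgrg6 differed by -1.01 in Gpr124-/- (interval -2.42 to 0.40, adjusted p 0.336), 0.75 in Gpr124ΔC/ΔC (interval -0.59 to 2.08, adjusted p 0.711) and -1.76 between the mutants (interval -3.17 to -0.34, adjusted p 0.122). Both intervals against wild type include 0 and reach beyond a change of 1.

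Of the nearest relatives of Adgra2, Adgra3 did not pass the test in either mutant and Adgra1 was too low to be tested. Adgra3 (ENSMUSG00000029090, chr5:49959956-50059006, minus strand), which takes part in planar cell polarity signaling, was at 13.5, 12.9, 8.39 and 7.63 TPM in wild type, 17.1, 10.3, 8.02 and 7.70 TPM in Gpr124ΔC/ΔC and 10.3, 12, 19.9 and 20.5 TPM in Gpr124-/-. ME4 and ME5 were the highest of the 12 libraries, and KE4 and ME1 lay within the wild-type range. The log2 fold change was 0.51 in Gpr124-/- (SE 0.35, interval -0.25 to 1.26, adjusted p 0.368) and -0.02 in Gpr124ΔC/ΔC (interval -0.78 to 0.73, adjusted p 0.995). A rise of up to 1.26 on the log2 scale lies within the first interval.

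Adgra1 (ENSMUSG00000025475, chr7:139834174-139878088, plus strand), a mainly neuronal receptor, had 2 to 12 reads in wild-type libraries, 1 to 7 in Gpr124ΔC/ΔC and 0 to 11 in Gpr124-/-, and did not pass the filter on low counts. Its means were 0.177, 0.178 and 0.158 TPM, and the ranges overlapped. The 0 reads of ME4 allow up to 3 reads, or 0.0769 TPM, counting error only. With no filter on low counts its log2 fold change was -0.23 in Gpr124-/- (SE 0.78, adjusted p 0.927).

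As a check on single values, the TPM of each gene was compared between genotypes by the exact two-sided permutation test over 70 orders of 4 against 4 libraries. The smallest p this allows, 0.0286, was reached by Adgrl3 in each of the 3 comparisons. After adjustment over the 30 tests the lowest p was 0.245, but in this design an adjusted p under 0.05 needs most of the tests to be at the smallest p, so that the adjusted values say nothing about the genes.

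Of the other 19 adhesion GPCR genes 8 had enough reads to be tested. The most abundant of them, Adgrg3, had a log2 fold change of 0.16 in Gpr124-/- against wild type (interval -0.09 to 0.41, adjusted p 0.4). There 1 of the 8 was called higher and 1 lower, beside 5.67% and 4.21% of all tested genes. The higher one was Adgrv1, a very large receptor known from hair cells, with 0.325 TPM against 0.125 TPM and a log2 fold change of 1.30 (adjusted p 0.0461). In Gpr124ΔC/ΔC 1 of the 8 was called higher and 0 lower, beside 0.89% and 1.03% of all genes. This was Celsr1, with 5.31 against 2.05 TPM and a log2 fold change of 1.32 (adjusted p 0.0455), and in Gpr124-/- it had 0.81 (adjusted p 0.114).

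Teneurins, FLRT proteins and neurexins, which bind latrophilins, and the Unc5 netrin receptors, which bind FLRT proteins as latrophilins do, were read as 1 list, in which Unc5a and Nrxn2 rose in Gpr124-/-. Of its 14 genes 13 were tested, and in Gpr124-/- against wild type 2 were called higher and 0 lower, beside 5.67% and 4.21% of all tested genes, with a median log2 fold change of -0.07 beside -0.01 over all genes. Unc5a rose from 1.96 to 7.23 TPM (log2 fold change 1.82, adjusted p 0.00924), and Nrxn2, a neurexin, from 0.324 to 0.79 TPM (1.23, adjusted p 0.0136). The 10 neuron markers summed to 53.6 to 136 TPM in wild type and 112 to 143 TPM in Gpr124-/-, and 1 of them, Stmn2, was called higher, with 14.2 against 34.4 TPM. The part of neuronal RNA in these changes was not tested. The 3 most abundant genes of the list were Unc5b (0.58, adjusted p 0.153), Flrt2 (-0.82, adjusted p 0.0224) and Flrt3 (-0.53, adjusted p 0.103). Flrt2 averaged 56.7 TPM in wild type and 33.2 TPM in Gpr124-/-, short of the fold threshold, and its ranges overlapped, with KE4 at 51.9 TPM and the 3 embryos of letter M at 20 to 34.2 TPM. In Gpr124ΔC/ΔC 0 of 13 were called, beside 0.89% of all genes higher and 1.03% lower, and Flrt2 stood at 57.1 TPM (-0.07, adjusted p 0.959).

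Among the ligands of the other receptors, chains of collagen IV rose and Prnp and Tgm2 fell in Gpr124-/-. Of 16 genes 15 were tested, and in Gpr124-/- against wild type 3 were called higher and 2 lower, beside 5.67% and 4.21% of all tested genes, with a median log2 fold change of 0.59 beside -0.01 over all genes. The basement membrane chains Col4a1 and Col4a2, ligands of Adgrg6, rose from 1906 to 4546 TPM (1.22, adjusted p 0.000276) and from 1205 to 2571 TPM (1.06, adjusted p 0.000909). Prnp, the prion protein, another ligand of Adgrg6, fell from 1211 to 343 TPM (-1.86, adjusted p 4.34e-07), and Tgm2, the transglutaminase that binds Adgrg1, fell from 44.8 to 22.1 TPM (-1.06, adjusted p 9.77e-05). Itgb3, an integrin subunit that is also a platelet protein, rose from 26.3 to 115 TPM (2.12, adjusted p 0.00356), in the libraries with the high platelet sums given above. The tetraspanin Cd81, a partner of Adgrg1, had 1608 and 1817 TPM (0.14, adjusted p 0.281). Without the fold threshold 6 of 15 were higher in Gpr124-/- and 2 lower, against 10.5% and 9.32% of all genes, and Plxnb2, a plexin, was among the former (0.92, adjusted p 0.00109). In Gpr124ΔC/ΔC 0 of 15 were called, beside 0.89% of all genes higher and 1.03% lower. Without the fold threshold 1 was higher there, again Plxnb2 (0.62, adjusted p 0.0441), and 2 were lower, Prnp (-0.74, adjusted p 0.00238) and Tgm2 (-0.71, adjusted p 0.00731), against 1.85% and 2.24% of all genes.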

How the data were processed

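RNA was isolated with the PicoPure kit from sorted endothelial cells of 12 embryos, and libraries were prepared with SmartSeq V4 and poly(A) selection and sequenced as paired ends by Genewiz. The submitters' processing notes name mm10 and bcl2fastq 2.17. The aligner, the counting program and its strand setting are not given in the sources used here. The authors deposited raw read counts on 49315 Ensembl genes per library, and TPM values, which a recomputation from counts and gene lengths matched to within 0.00498% above 1 TPM. Gene names and positions came from GENCODE vM21 (GRCm38), which held 49056 of the gene identifiers. The files do not say whether wild-type embryos were littermates of the mutants.

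The test was that of edgeR 4.0.16 (R 4.3.3), after filterByExpr with default settings (count minimum 10) had left 16637 genes and TMM had given scaling factors between 0.946 and 1.04. All 12 libraries entered 1 quasi-likelihood fit with genotype as its term, and p-values were adjusted by Benjamini-Hochberg over all tested genes. Intervals are at 95%. On simulated counts with 200 genes changed by a log2 fold of 2 in Gpr124-/- against wild type, the fit called 200 of them and 3 unchanged genes among 16365 genes tested, and 109 of them with the label letter as a term. Alternatives were other scaling factors and filters, the label letter as a term, DESeq2 1.42.0, limma 3.58.1 on log2(TPM + 1), 2-genotype fits and leaving out each library. The replicate names of the labels are embryo codes that no 2 genotypes share, and no paired fit was made.

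The 10 genes, the lists of ligands, their partners and markers, and the tests were chosen with earlier results of these data known. The text names each of the 10 genes, of each other list the genes called in a mutant against wild type and the 3 most abundant over 12 libraries, and the genes most like Adgrl3. Some genes that this rule names are not reported here. Adgre1, Ptprc, the marker genes and Plxnb2 were named after their values were seen. The 4 embryos per genotype limit the precision.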

Additional observations from a re-analysis of the deposited data

How the results depend on the processing

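Adgrl3 was called lower in Gpr124-/- and in Gpr124ΔC/ΔC against wild type in all 23 alternatives each, with log2 fold changes of -3.07 to -1.62 and -1.74 to -1.04. The least extreme values came from limma on log2(TPM + 1), which understates the change of low genes. With no fold threshold, 3295, 680 and 1468 genes were called in Gpr124-/- against wild type, Gpr124ΔC/ΔC against wild type and Gpr124-/- against Gpr124ΔC/ΔC, in place of 1644, 320 and 766, and 3, 1 and 2 of the 10 genes in place of 1 each. In the fit with a letter term, 846 genes were called in the first and 209 in the last comparison, and 0 of the 10 genes in the last. The last comparison called 482 genes by limma on log2(TPM + 1) and 386 when any TPM above 0 was kept, with 0 of the 10 in both, and 2 of the 10 by DESeq2 (Adgrl3 and Adgrg6, the latter at -1.74, adjusted p 0.045). Leaving out single libraries gave 506 (without Gpr124-/- ME5) to 1008 genes there. In Gpr124ΔC/ΔC against wild type, limma with any TPM above 0 called 193. Signs turned for small changes with adjusted p of 0.667 or more. In Gpr124-/- against wild type, the letter term gave 0.26 for Adgrl1 and -0.20 for Adgrf5, and leaving out single libraries gave -0.20 to 0.07 for Adgrl1. In Gpr124-/- against Gpr124ΔC/ΔC, the letter term gave 0.22 for Adgrl1 and -0.18 for Adgrf5, and leaving out single libraries -0.32 to 0.08 for Adgrl1. In Gpr124ΔC/ΔC against wild type, upper-quartile factors gave 0.02 for Adgra3 and Adgrf5. Library totals gave 0.04 for Adgra3, 0.05 for Adgrf5 and 0.01 for Adgre5. A mean count of 50 and the fit on 2 genotypes gave 0.00 for Adgrf5. The 3 limma settings gave 0.04 for Adgrf5 and 0.03 for Adgre5, and the letter term gave -0.08 for Adgrg1. Leaving out single libraries there gave -0.45 to 0.14 for Adgra3, -0.19 to 0.26 for Adgrl1, -0.14 to 0.16 for Adgrf5, -0.11 to 0.01 for Adgre5 and -0.07 to 0.12 for Adgrg1. The causes were not tested, other than that fewer libraries or tested genes entered some fits. The count of 8 genes at 1 TPM or more in wild type was the same with TPM taken over protein-coding genes alone, where Adgrl3 averaged 4.03 and Adgre5 388 TPM.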
